A study of Homo sapiens with 6 samples.

Results

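SR proteins are RNA-binding splicing factors that carry an RNA recognition motif at the amino end and a tail rich in arginine-serine repeats at the carboxyl end. They bind exonic enhancers and help recruit the spliceosome to nearby splice sites. Phosphorylation of the tail sets where they are and what they do: SRPK kinases act on them mainly in the cytoplasm and license their import, and CLK kinases release them from nuclear speckles. Many genes of the family limit their own output through cassette exons that carry a stop codon, so that part of the transcript pool is removed by nonsense-mediated decay, and the CLK genes retain introns in a similar role. The 10 genes described here were taken from the deposited count table by symbol, out of 63140 rows. They comprised 8 SR protein genes (SRSF1 to SRSF7 and SRSF11) and the kinase genes CLK1 and CLK4. All 10 passed the filter on low counts that left 16754 genes for testing. The symbol SRSF1 occurred in 2 rows: ENSG00000136450 was tested, and ENSG00000266086, with at most 2 counts in any library, was not.

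The libraries came from HEK293 cells, an established human line of embryonic kidney origin grown in serum-containing medium. The 3 control libraries came from cells given the solvent DMSO for 24 h. The 3 treated libraries came from confluent cells given GSK-A1 at 100 nM, also for 24 h. GSK-A1 inhibits phosphatidylinositol 4-kinase alpha, the enzyme that makes phosphatidylinositol 4-phosphate at the plasma membrane. The labels name no genetic change in either group. The labels call the replicates biological without saying how the cultures were kept apart. The p-values set the difference between groups against the spread between these libraries, whose independence is not stated.

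Total counts ran from 33040178 to 47777233 per library, and the 10 genes together took 0.185% to 0.208% of them. At this depth the least abundant member, CLK4, held 580 to 856 counts per library. GSK-A1 replicate 2 stood apart from the other treated libraries: its correlation with them across tested genes was 0.994 and 0.995, against 0.997 for GSK-A1 replicates 1 and 3. Those replicates correlated about as well with the controls (0.994 to 0.995), and GSK-A1 replicate 2 less (0.992). Each member's value without GSK-A1 replicate 2 is therefore given where it matters. Levels are in CPM, counts per 1000000 counts of a library after scaling. Of 6 markers of the line, NEFL was at least 713 CPM in every library and LHX1 lay at 14.5 to 15.6 CPM, while INA did not exceed 0.021 CPM. VIM, PAX2 and NEFM did not overlap between the groups, where 40.5% of all genes tested did not overlap either, a similar share. VIM lay at 1049 to 1116 CPM in controls and 1179 to 1283 CPM in treated libraries, and PAX2 at 2.61 to 2.77 CPM with DMSO and 1.93 to 2.04 CPM with GSK-A1. NEFM lay at 0.0603 to 0.198 CPM in controls and 0.214 to 0.381 CPM in treated libraries. The 6 markers summed to 1781 to 1851 CPM in controls and 1911 to 2094 CPM in treated libraries. The part of these markers in the results was not tested. The summed markers of leukocytes, endothelium and hepatocytes stayed at or below 0.29 CPM in every library, and those of fibroblasts, nearly all COL1A1, lay at 6.63 to 7.69 CPM with DMSO and 5.03 to 7.04 CPM with GSK-A1.

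All 10 genes have at least 1 transcript annotated as a target of nonsense-mediated decay in GENCODE 29, against 42.4% of the 13348 protein-coding genes tested, and 8 have a transcript with a retained intron, against 56.5%. The counts are sums over a gene, so productive and decay-prone transcripts cannot be told apart in these values, and neither can fewer expressing cells and less RNA per cell. RefSeq promoter windows (GRCh38.p14, 250 bases before to 50 after a transcript start) were matched by symbol for 9 of the 10 genes, all but SRSF2. Where a gene had several windows, the window holding the most GENCODE protein-coding starts was used. Shares over all windows, given below, involved no such choice, so they are not of a like set. The 8 letters CCATTTTG, the core bound by YY1, were chosen for a search after these sequences had been read, on both strands. They occurred in the windows of SRSF1, SRSF5, CLK1 and CLK4, 4 of 9, and in 1.59% of all 35116 windows. The following stretches of 30 bases show that match in capitals, on the coding strand, 5′ to 3′.
SRSF5: ggacgcgccctCCATTTTGtggagcgccag
SRSF1: tgataaaggcgCCATTTTGgaggggccgcg
CLK1: agctgtcagctCCATTTTGttgttggtgcg
CLK4: cggcgctgccgCCATTTTGtggggtgtttg
The SRSF5 match began 32 bases before the transcript start (chr14:69767099-69767128, plus strand) and the CLK1 match 99 bases before it (chr2:200864642-200864671, minus strand). The SRSF1 match began at base 2 of the transcript (chr17:58007227-58007256, minus strand) and the CLK4 match at base 14 (chr5:178627019-178627048, minus strand). All 4 matches had the same orientation. These 4 genes included the strongest fall by fold change (SRSF5), the strongest rise (CLK1) and 2 genes that did not pass the test.

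The bases upstream of 4 members that differed in direction are printed for comparison, SRSF7 and SRSF5 among the genes that fell and CLK1 and SRSF4 as the genes that rose. Capitals mark matches, on either strand, to CCATTTTG, to CCGGAAGT (an ETS-type site), to the core of a cyclic AMP response element (TGACGT) or to a TATA box with the letters TATAAA.
SRSF7: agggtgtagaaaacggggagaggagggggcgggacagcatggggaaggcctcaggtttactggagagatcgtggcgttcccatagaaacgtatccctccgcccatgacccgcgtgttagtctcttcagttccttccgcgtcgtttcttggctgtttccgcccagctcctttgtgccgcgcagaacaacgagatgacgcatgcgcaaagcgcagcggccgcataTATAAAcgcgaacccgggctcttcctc
SRSF5: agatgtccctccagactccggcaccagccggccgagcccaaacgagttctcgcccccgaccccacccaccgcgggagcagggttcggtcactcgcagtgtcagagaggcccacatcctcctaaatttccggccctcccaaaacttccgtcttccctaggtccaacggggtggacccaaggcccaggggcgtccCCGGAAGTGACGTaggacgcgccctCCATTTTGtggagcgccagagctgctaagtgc
CLK1: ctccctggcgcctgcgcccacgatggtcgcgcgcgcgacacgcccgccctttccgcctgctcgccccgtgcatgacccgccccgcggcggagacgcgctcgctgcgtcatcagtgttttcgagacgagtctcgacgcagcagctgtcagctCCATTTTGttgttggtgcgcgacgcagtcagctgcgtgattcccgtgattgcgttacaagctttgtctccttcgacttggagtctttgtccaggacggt
SRSF4: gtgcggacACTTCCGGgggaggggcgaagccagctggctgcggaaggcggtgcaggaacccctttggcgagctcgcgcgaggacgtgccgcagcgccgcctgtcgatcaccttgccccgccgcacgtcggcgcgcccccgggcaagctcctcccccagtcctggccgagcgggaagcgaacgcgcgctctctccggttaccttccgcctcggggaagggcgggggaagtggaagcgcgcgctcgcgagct
These 250 bases end just before the start and lie at chr2:38751362-38751611 (SRSF7, minus strand), chr14:69766892-69767141 (SRSF5, plus), chr2:200864562-200864811 (CLK1, minus) and chr1:29181901-29182150 (SRSF4, minus). In SRSF5 the ETS-type and response element matches overlap by 1 base and stand 57 and 50 bases before the start. Over the full windows the response element core occurred in 4 of 9 members (CLK4, SRSF1, SRSF3 and SRSF5) and in 7.98% of all windows. CCGGAAGT occurred in SRSF4 and SRSF5 and in 4.14% of all windows, and the TATA box letters in SRSF3 and SRSF7 and in 11.5%. GCGTGGGCG, an EGR-type site, occurred in 0 of 9 members and 0.794% of all windows.

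The question put to the counts was whether transcripts of SR proteins and their CLK kinases differed between cells with the lipid kinase inhibited and cells given solvent. Most SR protein genes of the set were lower with GSK-A1 and CLK1 was higher. Of the 10 genes, 5 fell (SRSF2, SRSF3, SRSF5, SRSF6 and SRSF7), 2 rose (SRSF4 and CLK1) and 3 did not pass the test (SRSF1, SRSF11 and CLK4). The test was edgeR's quasi-likelihood test, with a gene called at a Benjamini-Hochberg adjusted p under 0.05 over all genes tested. The 7 calls among 10 genes compare with 22.9% of all genes tested (12.0% higher, 10.9% lower). Among the 8449 genes at least as abundant as the lowest member, 29.8% were called (19.2% higher, 10.6% lower). The groups did not overlap in 8 of the 10 genes, 3 higher and 5 lower. Over all genes tested that share was 40.5% (20.2% higher, 20.4% lower), and among the 8449 it was 49.2% (30.5% higher, 18.7% lower). The changes were small: the log2 fold change ran from -0.30 to 0.26, with a median of -0.11, where all genes tested had a median of -0.01. Without GSK-A1 replicate 2, 6 of the 10 were called lower and 3 higher, where 4890 of 17399 genes were called. The members were picked with earlier results of these data known, so these counts describe the set and are no test of it.

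**Figure D1:**
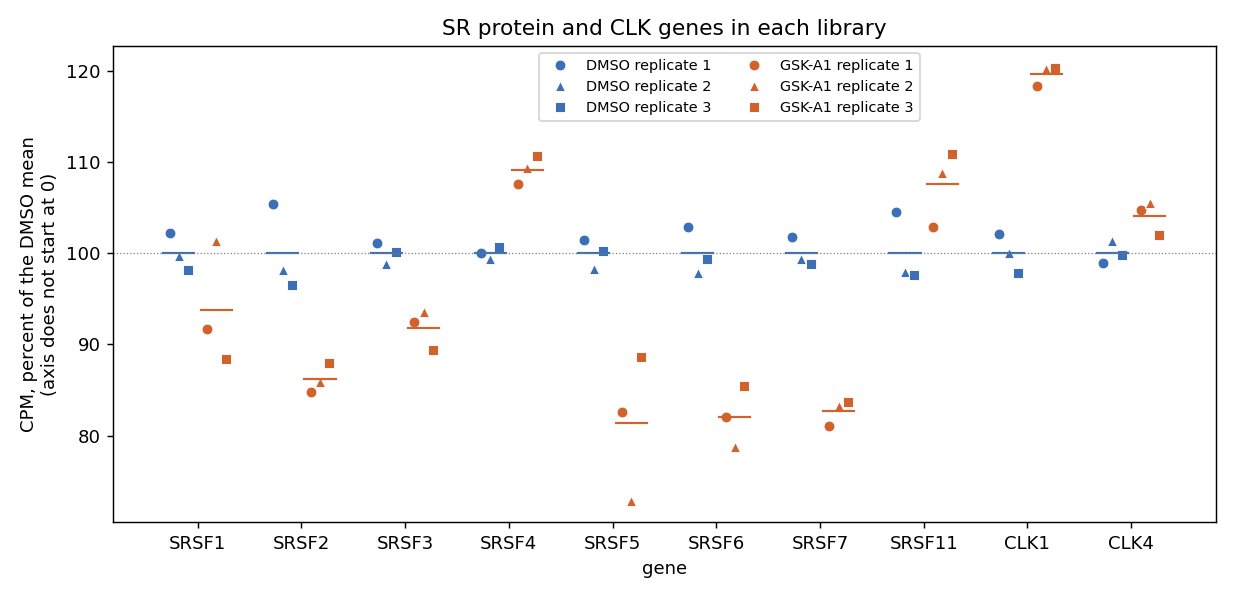
CPM of each gene in each library (y axis, as a percent of that gene's DMSO mean, not starting at 0) for the 10 genes (x axis); blue is DMSO, orange is GSK-A1, symbols are replicates and short lines group means. SRSF2, SRSF3, SRSF5, SRSF6 and SRSF7 lie below all DMSO libraries and SRSF4, CLK1 and CLK4 above them, while SRSF1 and SRSF11 overlap.

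SRSF7, a zinc knuckle SR protein that also takes part in mRNA export and 3′ end choice, had the smallest p-value of the 10. The gene (ENSG00000115875) lies at chr2:38743599-38751494 on the minus strand in GENCODE 29 (GRCh38, as for all gene positions here). Controls 1 to 3 held 259, 253 and 252 CPM, and treated libraries 1 to 3 held 206, 212 and 213 CPM; values by library follow this order throughout. The highest treated library was below the lowest control, and replicates within a group lay close together. GSK-A1 differed from DMSO by -0.27 ± 0.03 (log2, SE; adjusted p by edgeR = 4.20e-05), a change of -17.4%. It was called under all 16 alternative settings, at -0.32 to -0.25.

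SRSF6, which acts on the choice of many alternative exons, was lower to a similar degree. The gene (ENSG00000124193, chr20:43457928-43464247, plus strand) stood at 115, 109 and 111 CPM with DMSO and at 91.6, 87.9 and 95.3 CPM with GSK-A1. All treated libraries lay below all controls, and GSK-A1 replicate 2 was the lowest. The log2 difference came to -0.29 ± 0.04 (SE; adjusted p by edgeR = 1.58e-04), and -0.25 without that library. It too was called under all 16 alternatives. A further gene, AC005822.1, holds 6.41% of the 50-base stretches found in its longest transcript.

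SRSF5, an SR protein known to respond to serum and insulin in other cells, had the largest fold change downward and, relative to its mean, the widest spread among treated libraries of the 10. The gene (ENSG00000100650, chr14:69726900-69772005, plus strand) stood at 125, 121 and 124 CPM with DMSO and at 102, 90.0 and 109 CPM with GSK-A1. The groups did not overlap, but GSK-A1 replicate 2 lay well below the other treated libraries. On the log2 scale the change was -0.30 ± 0.06 (SE; adjusted p by edgeR = 0.00226). Without GSK-A1 replicate 2 it was -0.22, still called (edgeR adjusted p = 2.51e-07). GC correction removed each library's trend of log2 CPM on transcript GC content. After it the SRSF5 change was -0.35 ± 0.10 (SE) and was not called (edgeR adjusted p = 0.0760). The estimate was larger in size there, with a wider SE.

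SRSF2, which acts in exon definition and in release of paused RNA polymerase II, had a smaller relative change, -13.8%, than SRSF5, SRSF6 and SRSF7. The gene (ENSG00000161547, chr17:76734115-76737374, minus strand) stood at 414, 386 and 379 CPM with DMSO and at 333, 337 and 346 CPM with GSK-A1. DMSO replicate 1 was the highest of its group, and the treated libraries lay together below all controls. The estimated log2 change was -0.21 ± 0.04 (SE; adjusted p by edgeR = 8.38e-04), and it was -0.18 without DMSO replicate 1 (0.0119). Exons of MFSD11 on the opposite strand cover 36.7% of its exonic length. The strand setting of the counting is not given in the sources used here.

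SRSF3, the smallest of the family and a factor in splicing, export and 3′ end processing, changed least among the genes that fell. The gene (ENSG00000112081, chr6:36594353-36605600, plus strand) stood at 454, 443 and 449 CPM with DMSO and at 415, 420 and 401 CPM with GSK-A1. The groups did not overlap. GSK-A1 differed from DMSO by -0.12 ± 0.03 (log2, SE; adjusted p by edgeR = 0.0132). The call was lost in 4 of the 6 fits that left out a library, those without control 1 (edgeR adjusted p = 0.0662), control 3 (0.0705), treated replicate 1 (0.0613) or treated replicate 3 (0.0651), and the value was -0.12, -0.12, -0.12 and -0.10 there.

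SRSF1, the founding member of the family, did not pass the test. The gene (ENSG00000136450, chr17:58003360-58007346, minus strand) stood at 146, 143 and 140 CPM with DMSO and at 131, 145 and 126 CPM with GSK-A1. Treated replicates 1 and 3 lay below all controls, and GSK-A1 replicate 2 lay within the range of the controls. The log2 difference came to -0.09 ± 0.05 (SE; adjusted p by edgeR = 0.158). Without GSK-A1 replicate 2 it was -0.15 and was called (edgeR adjusted p = 1.87e-04), as it was under upper-quartile factors (-0.13) and after GC correction (-0.14). The other row with this symbol, ENSG00000266086, is AC015813.2 in GENCODE 29, and its exons cover 56.6% of the exonic length of SRSF1 on the same strand. Reads in that stretch could have been assigned to neither gene, and the setting that decides this is not given in the sources used here, so the level of SRSF1 is uncertain.

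SRSF4 and SRSF11 differed in the other direction from the genes above. SRSF4 (ENSG00000116350, chr1:29147743-29181987, minus strand), the SR protein with the longest arginine-serine tail among SRSF4, SRSF5 and SRSF6, stood at 206, 204 and 207 CPM with DMSO and at 221, 225 and 228 CPM with GSK-A1. Every treated library was above every control. On the log2 scale the change was 0.13 ± 0.03 (SE; adjusted p by edgeR = 0.0132). The call was lost when control 1 (0.13, edgeR adjusted p = 0.0559), 2 (0.12, 0.0694) or 3 (0.13, 0.0578) was left out. The value changed little in those fits. Over all genes they called 2163, 2213 and 2206, against 3835 with all libraries. The SRSF4 call was also lost under upper-quartile factors (0.09, 0.0710) and after GC correction (0.08, 0.0720). SRSF11 (ENSG00000116754, chr1:70205682-70253052, plus strand), a more distant family member known for microexon inclusion in neurons, stood at 308, 288 and 287 CPM with DMSO and at 303, 320 and 326 CPM with GSK-A1. The groups overlapped, because DMSO replicate 1 lay above GSK-A1 replicate 1. The estimated log2 change was 0.10 ± 0.04 (SE; adjusted p by edgeR = 0.0655). Leaving out treated replicate 1 (0.14, edgeR adjusted p = 0.0424) or 2 (0.10, 0.0163) gave a call, as did fitting with no filter on low counts (0.11, 0.0411) and DESeq2 (0.12, adjusted p = 0.0464), and it was 0.02 after GC correction.

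**Figure D2:**
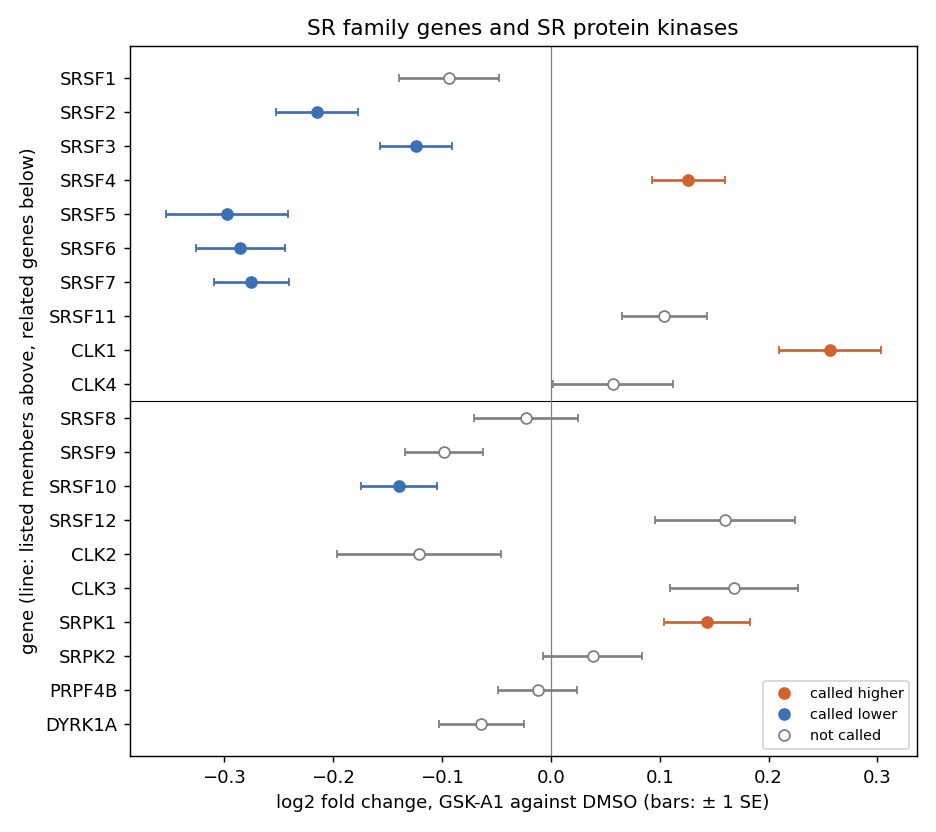
Log2 fold change with GSK-A1 against DMSO (x axis, bars are 1 SE either way) for the 10 members above the line and for related SR genes and kinases below it (y axis), coloured by call; SRPK3 is left out because its level is near 0. SRSF5, SRSF6 and SRSF7 lie near -0.3, and SRSF4, CLK1 and SRPK1 are the rises that were called.

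CLK1, a dual-specificity kinase that phosphorylates SR protein tails in the nucleus, was the clearest rise of the set. The gene (ENSG00000013441, chr2:200853009-200864744, minus strand) stood at 29.9, 29.3 and 28.7 CPM with DMSO and at 34.7, 35.2 and 35.3 CPM with GSK-A1. The treated libraries, replicate 2 included, lay close together and above all controls. GSK-A1 differed from DMSO by 0.26 ± 0.05 (log2, SE; adjusted p by edgeR = 0.00106), a rise of 19.4%. It was called under all 16 alternatives, at 0.24 to 0.27 with 1 library left out. After GC correction it was 0.16.

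CLK4, the closest relative of CLK1, did not pass the test. The gene (ENSG00000113240, chr5:178602664-178630615, minus strand) stood at 17.4, 17.8 and 17.5 CPM with DMSO and at 18.4, 18.5 and 17.9 CPM with GSK-A1. The groups did not overlap, but the gap between DMSO replicate 2 and GSK-A1 replicate 3 was narrow. The log2 difference came to 0.06 ± 0.06 (SE; adjusted p by edgeR = 0.489), and it turned to -0.03 after GC correction. The ratio of CLK1 to CLK4 within a library needs no library factor, and this pair was picked after values were seen. The ratio was 1.72, 1.65 and 1.64 with DMSO and 1.89, 1.90 and 1.97 with GSK-A1, with every treated library above every control. As CLK4 differed little, the ratio mostly restates the rise of CLK1. No 50-base stretch of the longest CLK1 transcript occurred in another gene.

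Ratios between SR protein genes within a library were also taken, for pairs picked after their values were seen. SRSF4 to SRSF7 was 0.794, 0.808 and 0.823 with DMSO and 1.07, 1.06 and 1.07 with GSK-A1. The mean of this ratio of counts went from 0.808 ± 0.014 to 1.067 ± 0.006 (SD, n = 3), and the groups did not overlap. SRSF11 to SRSF7 was 1.19, 1.14 and 1.14 with DMSO and 1.47, 1.51 and 1.53 with GSK-A1. These ratios do not depend on how libraries were scaled to each other. No test is given, because the pairs were chosen for their difference.

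Levels between genes were compared per kilobase of exonic length (union of GENCODE 29 exons, which counts all annotated transcripts). With DMSO the order was SRSF2 at 130 ± 6 CPM per kilobase (SD, n = 3), SRSF3 at 63.0 ± 0.8, SRSF7 at 62.9 ± 1.0, SRSF1 at 42.8 ± 0.9, SRSF11 at 34.7 ± 1.3, SRSF6 at 24.3 ± 0.6, SRSF4 at 23.1 ± 0.2, SRSF5 at 23.1 ± 0.4, CLK1 at 5.67 ± 0.12 and CLK4 at 2.21 ± 0.03. SRSF3 and SRSF7 overlapped between libraries, as did SRSF4 and SRSF5, so their order is not resolved. With GSK-A1 the level of SRSF3 (57.9 ± 1.4) was above that of SRSF7 (52.0 ± 0.9) in all libraries. SRSF4 (25.2 ± 0.4) stood above SRSF6 (19.9 ± 0.8) and SRSF5 (18.7 ± 1.8) in all treated libraries, where SRSF6 and SRSF5 overlapped. SRSF1 (40.2 ± 2.9) overlapped SRSF11 (37.4 ± 1.5) with GSK-A1 but not with DMSO. Reads in the exons that SRSF1 shares with AC015813.2 could have been assigned to neither gene. The place of SRSF1 in this order, and against SRSF11, is therefore uncertain. Both kinase genes stayed below every SR protein gene of the set in each group.

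Of 4 further SR family genes, 1 fell and 3 were not called, with a median log2 fold change of -0.06, where 22.9% of all genes tested were called (10.9% lower). The count is close to that share. SRSF10, whose protein represses splicing when dephosphorylated, was the gene that passed the test, at 228 ± 2 CPM in controls and 207 ± 6 CPM in treated libraries (SD, n = 3; log2 fold change -0.14 ± 0.04, edgeR adjusted p = 0.00961). Its call was lost without DMSO replicate 1 (-0.13, edgeR adjusted p = 0.0528) or GSK-A1 replicate 1 (-0.11, 0.0851). SRSF9 stood at 261 ± 3 and 244 ± 8 CPM (-0.10 ± 0.04; edgeR adjusted p = 0.0573), and passed once treated replicate 2 was left out (-0.11, 0.00248). SRSF9 also passed with upper-quartile factors (-0.14, edgeR adjusted p = 0.00780), library totals only (-0.11, 0.0493), a mean of at least 1 CPM (-0.11, 0.0347) and after GC correction (-0.14, 0.00175). Exons of GATC on the opposite strand cover 46.2% of its exonic length. SRSF12 stood at 28.3 ± 0.7 and 31.7 ± 3.3 CPM (0.16 ± 0.06; edgeR adjusted p = 0.0848), with GSK-A1 replicate 2 the highest library at 35.5 CPM. Without that library it was 0.08, and without GSK-A1 replicate 1 it was 0.23 and was called (edgeR adjusted p = 0.0425), as it was with no filter on low counts (0.17, 0.0320). SRSF8 differed by -0.02 ± 0.05, less than its standard error.

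Of 7 further kinases of SR proteins, 2 rose and 0 fell, against 12.0% and 10.9% of all genes tested. Calls in either direction were thus close in number to the 22.9% over all genes, or 29.8% among the abundant ones. SRPK1, the main cytoplasmic SR protein kinase, stood at 388, 385 and 391 CPM with DMSO and at 411, 457 and 417 CPM with GSK-A1, with all treated libraries above all controls (log2 fold change 0.14 ± 0.04; edgeR adjusted p = 0.0157). GSK-A1 replicate 2 was the highest, and without it the change was 0.10 (edgeR adjusted p = 0.00389). The SRPK1 call was lost without DMSO replicate 1 (0.14, edgeR adjusted p = 0.0683), 2 (0.14, 0.0790) or 3 (0.15, 0.0605), and with upper-quartile factors (0.10, 0.0569). SRPK3, a muscle kinase, was called higher (edgeR adjusted p = 0.00889) at a level near 0, with 0.112 ± 0.046 CPM against 0.338 ± 0.043 (SD, n = 3). Exons of PLXNB3 on the same strand cover 30.2% of its exonic length, and the call was lost without DMSO replicate 1 (edgeR adjusted p = 0.0660).

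The other CLK genes did not pass the test. CLK3 stood at 56.2, 56.6 and 54.5 CPM with DMSO and at 65.6, 55.6 and 66.7 CPM with GSK-A1. GSK-A1 replicate 2 lay among the controls while the other treated libraries lay above them, and the log2 fold change was 0.17 ± 0.06 (edgeR adjusted p = 0.0507). Without that library it was 0.25 and was called (edgeR adjusted p = 2.08e-07). CLK3 was also called with RLE factors (0.17, 0.0389), with no filter on low counts (0.18, 0.00913) and by DESeq2 (0.18, 0.0280). CLK2 stood at 94.6, 90.7 and 96.6 CPM with DMSO and at 89.7, 74.6 and 94.6 CPM with GSK-A1, again with GSK-A1 replicate 2 apart from the rest. Its log2 fold change was -0.12 ± 0.08 (edgeR adjusted p = 0.288). It was -0.02 without GSK-A1 replicate 2 and -0.19, called (edgeR adjusted p = 0.0469), without GSK-A1 replicate 3. PRPF4B (-0.01 ± 0.04), SRPK2 (0.04 ± 0.05) and DYRK1A (-0.06 ± 0.04) were not called, and DYRK1A was called lower after GC correction (-0.10, edgeR adjusted p = 0.0271).

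**Figure D3:**
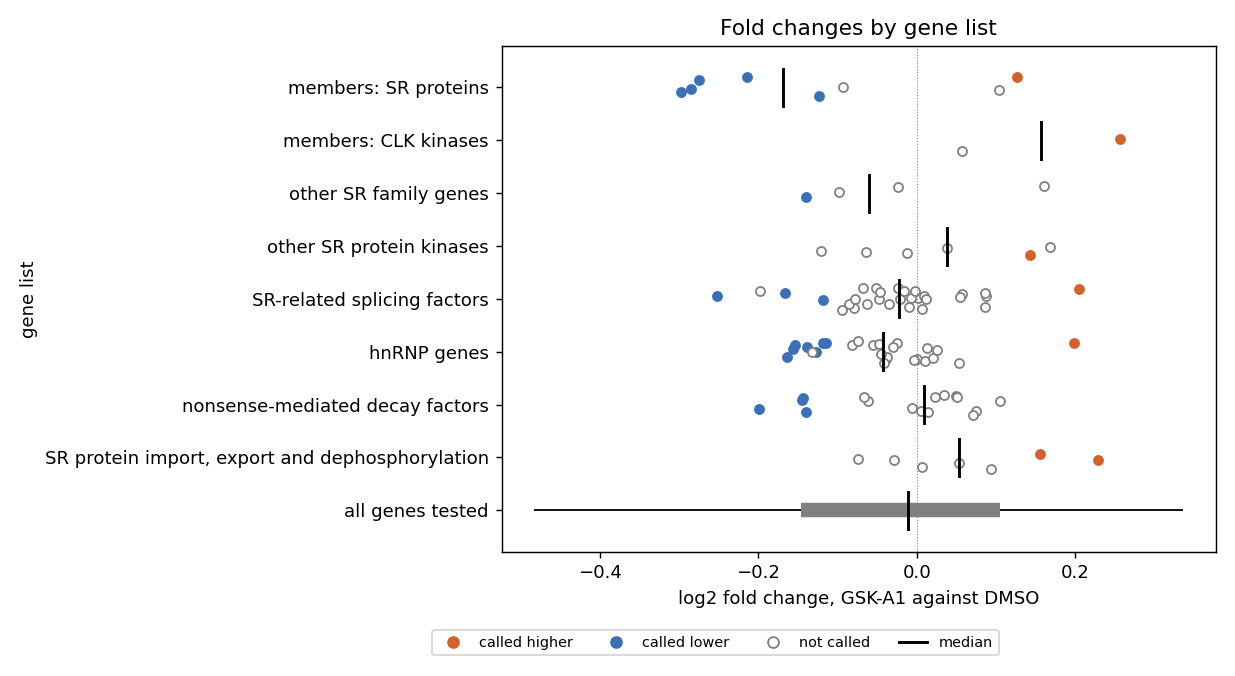
Log2 fold change with GSK-A1 against DMSO (x axis) for the genes of each list (y axis), coloured by call, with the list's median as a black line and SRPK3 out of range. For all genes tested the grey box spans the 25th to 75th percentile (-0.15 to 0.10) and the line the 5th to 95th (-0.48 to 0.34). The SR protein members have a median of -0.17, against -0.02 for SR-related factors and -0.04 for hnRNP genes.

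Splicing factors outside the SR family were counted in the same way. Of 30 SR-related factors, 1 rose and 3 fell, with a median log2 fold change of -0.02. That is a smaller share than the 22.9% called over all genes tested. U2AF2, the large subunit of the factor that binds the polypyrimidine tract, fell from 326 ± 12 to 274 ± 17 CPM (SD, n = 3; -0.25 ± 0.04, edgeR adjusted p = 8.51e-04). RSRC2 rose from 90.3 ± 1.3 to 104 ± 6 CPM (0.21 ± 0.04, edgeR adjusted p = 0.00345). Both were called under all 16 alternatives. Without GSK-A1 replicate 2 the change was -0.20 for U2AF2 and 0.16 for RSRC2. TRA2A, a partner of SR proteins at exonic enhancers, fell by 0.17 ± 0.05 on the log2 scale (edgeR adjusted p = 0.0173). Its call was lost without control 1 (-0.13, edgeR adjusted p = 0.110), control 3 (-0.18, 0.0513), treated replicate 1 (-0.15, 0.0956) or treated replicate 3 (-0.13, 0.0657). SCAF1 changed by -0.12 ± 0.04 (edgeR adjusted p = 0.0371) and lost its call when any DMSO library or GSK-A1 replicate 1 was left out (up to 0.170), with no filter on low counts (0.0829), by DESeq2 (0.0676) and after GC correction (-0.04, 0.300).

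The hnRNP genes, whose products often oppose SR proteins at the same exons, had 1 call higher and 7 lower among 26, with a median of -0.04. Over all genes tested 12.0% were called higher and 10.9% lower, and 19.2% and 10.6% among the abundant genes. HNRNPUL1 fell from 577 ± 7 to 519 ± 6 CPM (SD, n = 3; -0.15 ± 0.03, edgeR adjusted p = 0.00243) and HNRNPU from 870 ± 22 to 781 ± 35 CPM (-0.16 ± 0.04, 0.00556). HNRNPU lost its call without GSK-A1 replicate 1 (-0.13, edgeR adjusted p = 0.0616). HNRNPM changed by -0.16 ± 0.04 (edgeR adjusted p = 0.00866) and lost its call without DMSO replicate 1 (-0.12, 0.0725), without GSK-A1 replicate 1 (-0.15, 0.0630) and after GC correction (-0.13, 0.0657). PTBP3 was the rise, from 96.0 ± 2.9 to 110 ± 7 CPM (0.20 ± 0.05, edgeR adjusted p = 0.00565), and was called under all 16 alternatives. Without GSK-A1 replicate 2, its highest library, the rise of PTBP3 was 0.15.

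Among 16 genes of nonsense-mediated decay and the exon junction complex, 4 were called lower and 0 higher, with a median of 0.01. Calls in either direction were close in number to the 22.9% over all genes tested. All calls of this list were lower, where 10.9% of all genes tested and 10.6% of the abundant ones were called lower. EIF4A3, RBM8A and MAGOHB, which encode core parts of the exon junction complex, changed by -0.14 ± 0.04, -0.14 ± 0.04 and -0.20 ± 0.06 (edgeR adjusted p = 0.0144, 0.0288 and 0.0237), and SMG6, the decay endonuclease, by -0.14 ± 0.04 (0.0208). RBM8A, MAGOHB and SMG6 each lost the call in the 5 fits that left out a library other than GSK-A1 replicate 2 (edgeR adjusted p up to 0.125, 0.126 and 0.0983). In those fits RBM8A ran from -0.16 to -0.11, MAGOHB from -0.22 to -0.15 and SMG6 from -0.15 to -0.12. By DESeq2 RBM8A (-0.13, adjusted p = 0.0609) and MAGOHB (-0.19, 0.0581) were not called either. EIF4A3 lost it without control 1 (0.0775), control 3 (0.0746) or treated replicate 3 (0.0608). UPF1, the central helicase of the pathway, differed by -0.06 ± 0.03 (edgeR adjusted p = 0.198) and was singled out after its value was seen.

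Of 7 genes of nuclear import, nuclear export and protein phosphatases, 2 rose and 0 fell, a count close to the 22.9% called over all genes tested (12.0% higher). TNPO1, a nuclear import receptor for hnRNP and other proteins, rose from 323 ± 3 to 379 ± 25 CPM (SD, n = 3; 0.23 ± 0.04, edgeR adjusted p = 0.00106) and was called under all 16 alternatives. PPP1CC, a catalytic subunit of protein phosphatase 1, rose by 0.16 ± 0.04 (edgeR adjusted p = 0.0102), a call lost without DMSO replicate 1 (0.14, 0.0638). GSK-A1 replicate 2 was the highest library for both genes. Without it the rise was 0.18 for TNPO1 and 0.11 for PPP1CC. TNPO3, the import receptor for phosphorylated SR proteins, stood at 102 ± 1 and 109 ± 3 CPM (0.09 ± 0.04; edgeR adjusted p = 0.0843) and was singled out after its value was seen.

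The genes whose log2 CPM followed SRSF7 and CLK1 most closely over the 6 libraries were listed as a description, since a difference between the groups alone gives a high correlation. Next to SRSF7 were HCFC1R1 (Pearson r = 0.999), ZNF703 (0.998) and HOXC6 (0.997). HCFC1R1 differed by -0.34 ± 0.06, ZNF703 by -0.36 ± 0.04 and HOXC6 by -0.25 ± 0.05 on the log2 scale. Next to CLK1 were OLIG2 (r = 0.999), MOSPD2 (0.997) and CHMP5 (0.996). OLIG2 differed by 0.77 ± 0.07, CHMP5 by 0.16 ± 0.04 and MOSPD2 by 0.13 ± 0.05. MOSPD2 was not called (edgeR adjusted p = 0.0594) except without GSK-A1 replicate 2 (0.13, 0.0342), and CHMP5 lost its call without DMSO replicate 3 (0.16, 0.0515).

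**Figure D4:**
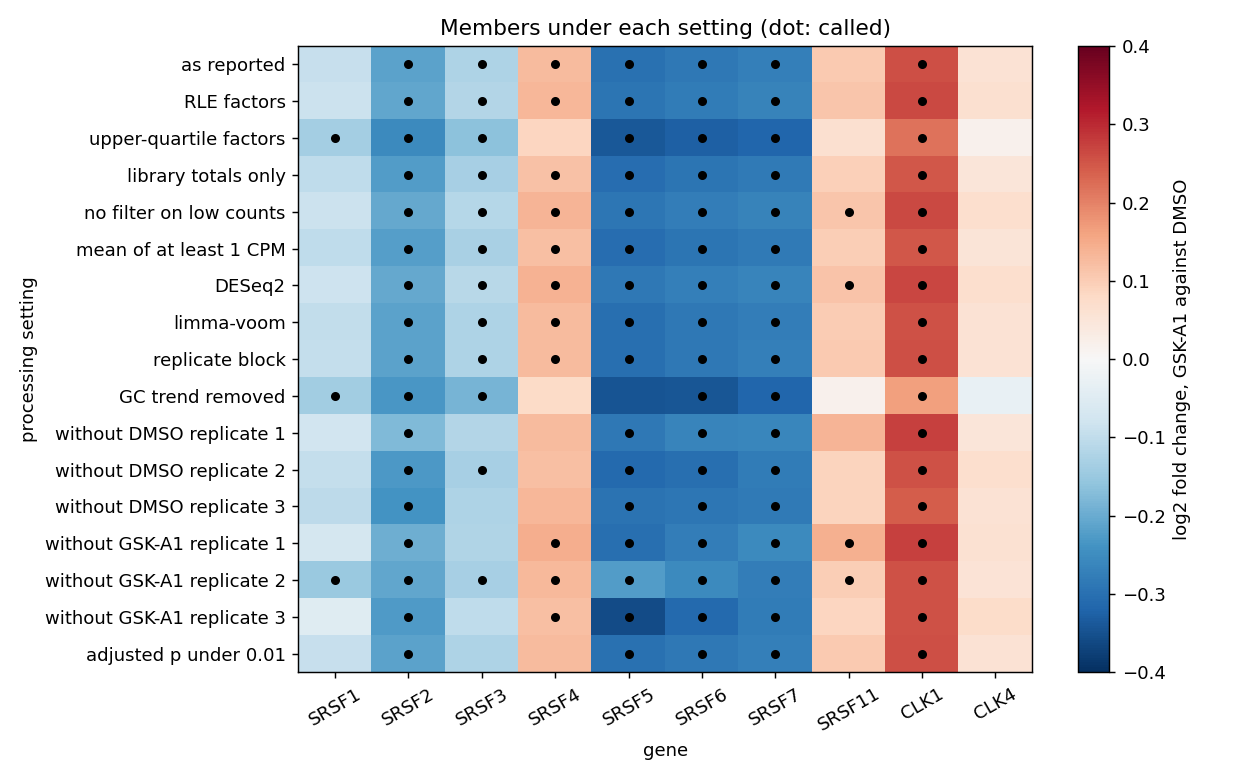
Log2 fold change (colour scale) of each of the 10 genes (x axis) as reported and under 16 alternative settings (y axis), with a dot where the gene was called. SRSF2, SRSF6, SRSF7 and CLK1 are called in every row, while the dots for SRSF3 and SRSF4 go when libraries are left out.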

How the data were processed

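RNA of 6 HEK293 cultures was made into libraries with a TruSeq stranded kit, per the labels' protocols. The deposited values were whole-number counts for each gene, not normalized, in 1 column per library. The submitters' processing notes name cutadapt 5.1, STAR 2.7.11b, featureCounts (Subread 2.1.1), DESeq2 1.38.0 and GRCh38.p13, with no role or order; the annotation release and strand setting are not given in the sources used here. Genes were kept by filterByExpr (smallest count 10, smallest total 15), scaled by TMM factors and tested with edgeR 4.0.16 (glmQLFit with robust dispersions and the legacy option off, glmQLFTest) in R 4.3.3 over all 16754 genes, without the replicate number. Standard errors are the unshrunken log2 coefficient over the square root of F. CPM values use TMM-adjusted totals. The common biological coefficient of variation was 4.06%. On counts simulated for this comparison, 200 genes were changed and 16562 genes passed the filter. There edgeR recovered 68.4% of genes changed by 0.5 and 85.9% of those changed by 1 (log2), with 5.00% of calls false. Both sizes exceed the change of each of the 10 genes, so recovery at their size was not measured.

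The 10 genes and the other lists were chosen with earlier results of these data known. The genes named were the 10, all further SR family genes and SR protein kinases, up to 4 called genes of each other list by p-value, and for the SR and the CLK member with the smallest p the 3 genes of at least 5 CPM most correlated with it. Gene models came from GENCODE 29, and GC content from the longest transcript. Alternatives were RLE, upper-quartile and no factors, other filters, DESeq2 1.42.0, limma-voom (limma 3.58.1), a replicate block, a GC trend (loess, span 0.3) as offset, a threshold of 0.01 and each library left out. The motif letters and the pairs of genes in ratios were chosen after sequences and values were seen, and UPF1 and TNPO3 were added to the named genes in the same way.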

Additional observations from a re-analysis of the deposited data

How the results depend on the processing

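Among the 10 genes, SRSF2, SRSF6, SRSF7 and CLK1 kept their call and direction under all 16 alternatives. The count called higher was 1 after GC correction, 1 with upper-quartile factors and 1 at an adjusted p under 0.01. Over all genes, 4237 of 16094 were called after GC correction, 51.6% of them higher. With upper-quartile factors 4027 of 16754 were called, 33.3% of them higher, and under 0.01 it was 1871, 56.5% of them higher. With a library left out, 1 to 3 of the 10 were called higher and 4 to 6 lower. Over all genes those fits called from 2163 of 16767 (without DMSO replicate 1) to 4890 of 17399 (without GSK-A1 replicate 2). The median log2 fold change of the 10 was -0.14 without treated replicate 2 and -0.075 without treated replicate 3, the ends of its range with a library left out, and was -0.15 with upper-quartile factors and -0.16 after GC correction. Their longest transcripts had a median GC content of 40.0%, against 48.3% for the genes tested with a known value; the part of GC content in the differences was not tested beyond that setting.

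Over all genes, 3835 were called, 1871 at an adjusted p under 0.01 and 2163 to 4890 with 1 library left out, the lowest without DMSO replicate 1 and the highest without GSK-A1 replicate 2. Of the calls, 52.3% were higher as reported, 33.3% with upper-quartile factors and 62.5% by DESeq2. Signs turned after GC correction for CLK4 (-0.031) and SRPK2 (-0.0046), and for SRPK2 with upper-quartile factors (-0.0024). With a library left out SRSF8 ran from -0.040 to 0.0074, positive without DMSO replicate 1 (0.0051) or GSK-A1 replicate 1, and PRPF4B from -0.024 to 0.013, positive without GSK-A1 replicate 1. None of these was called. Each cause was not tested. Same-numbered libraries deviated from their group means with correlations of 0.011, 0.019 and 0.032, and differently numbered ones with -0.033 to 0.012. GSK-A1 replicate 1 correlated slightly better with DMSO replicate 2 (0.0117) than with DMSO replicate 1 (0.0109). Each other library correlated best with its own number. All these correlations were small and the labels state no pairs, so the numbers were not taken as pairs. With the replicate number as a block, 4127 genes were called and 5 lower and 2 higher among the 10; SRSF9 (-0.10, edgeR adjusted p = 0.0454) and CLK3 (0.16, 0.0347) passed, and no other named gene changed its call. DESeq2 gave no adjusted p for SRPK3.

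Counts per gene do not separate transcript forms, and levels of CLK1 and CLK4 rest on the fewest reads of the 10.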
